A study of Mus musculus with 2 samples.

Results

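A set of 7 genes of gonadotropin and steroid hormone signalling were followed in the newborn mouse ovary. They were taken by symbol and make up 7 of the 31057 genes in the deposited tables: Cga, the common alpha subunit of the pituitary glycoprotein hormones; Fshr and Lhcgr, the receptors of follicle-stimulating hormone (FSH) and luteinizing hormone (LH); and the nuclear receptors Esr1 and Esr2 for oestrogens, Pgr for progesterone and Nr3c1 for glucocorticoids. The tissue is whole ovary of CD1 pups on postnatal day 2, dissociated into single cells and run as 2 droplet libraries, each from 6 ovaries of 3 pups of a single mother, with no treatment and no engineered allele named. The libraries are the replicates (n = 2), and cells within a library are not. With 2 libraries, a p-value measures only the spread between these pools of ovaries.

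FSH, LH and thyroid-stimulating hormone each pair the alpha subunit Cga with a beta subunit of their own, and pituitary cells are the classical source of all of these subunits. FSH and LH bind G protein-coupled receptors on somatic cells of the ovary and raise cyclic AMP (cAMP). Oestrogen, progesterone and glucocorticoid receptors are transcription factors that sit with chaperones until the hormone binds and then recruit coregulators to DNA. In the adult follicle Esr2 is the main oestrogen receptor of granulosa cells, whereas Esr1 is found mostly in theca, stroma and the surface epithelium.

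The identifiers in the files are ENSMUSG00000028298 (Cga), ENSMUSG00000032937 (Fshr), ENSMUSG00000024107 (Lhcgr), ENSMUSG00000019768 (Esr1), ENSMUSG00000021055 (Esr2), ENSMUSG00000031870 (Pgr) and ENSMUSG00000024431 (Nr3c1). In the GENCODE M21 annotation of GRCm38, Cga lies at chr4:34893779-34907370 on the plus strand. Esr1 lies at chr10:4611593-5005614 and Pgr at chr9:8899833-8968611, both on the plus strand. Esr2 lies at chr12:76120419-76177259 on the minus strand. Lhcgr (chr17:88716481-88791990) and Fshr (chr17:88984952-89200675) are neighbours on the minus strand of the same chromosome. None of these 6 gene bodies overlaps another gene counted in the files. The position of Nr3c1 is not reported here.

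The 250 bases before the annotated start are shown for Cga, Esr2 and Fshr, 3 of the members with their highest level in granulosa cells. They were read from RefSeq promoters on GRCm38.p6. They are written 5′ to 3′ on the strand of the gene, and capitals mark the matches found on either strand to 4 short motifs. These were the cAMP response element with 1 open base, spelled TGANGTCA, the core promoter box TATAAA, the E box, spelled CACGTG, and AAGGTCA, the steroidogenic factor 1 site.
Cga, chr4:34893529-34893778, plus strand: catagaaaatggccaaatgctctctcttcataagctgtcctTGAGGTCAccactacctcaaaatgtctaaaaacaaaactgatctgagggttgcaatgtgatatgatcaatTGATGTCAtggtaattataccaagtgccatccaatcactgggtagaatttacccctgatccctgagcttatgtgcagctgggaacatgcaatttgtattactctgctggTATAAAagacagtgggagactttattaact
Esr2, chr12:76177260-76177509, minus strand: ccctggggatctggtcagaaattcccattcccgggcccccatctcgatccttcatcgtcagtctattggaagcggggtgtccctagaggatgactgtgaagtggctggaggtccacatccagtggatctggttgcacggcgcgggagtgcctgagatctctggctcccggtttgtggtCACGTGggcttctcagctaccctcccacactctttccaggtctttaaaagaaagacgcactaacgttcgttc
Fshr, chr17:89200676-89200925, minus strand: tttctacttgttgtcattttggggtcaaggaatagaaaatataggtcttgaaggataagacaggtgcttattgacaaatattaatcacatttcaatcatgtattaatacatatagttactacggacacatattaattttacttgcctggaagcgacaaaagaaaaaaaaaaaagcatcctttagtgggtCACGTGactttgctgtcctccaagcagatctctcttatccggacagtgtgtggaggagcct
The Cga window held TGAGGTCA from base -209 and TGATGTCA from base -139, counted from the start, and TATAAA from base -30. Of 32851 promoters of this length, 7.49% held TGANGTCA and 12.4% held TATAAA. The Esr2 and Fshr windows each held 1 CACGTG, from base -72 and base -61, a motif found in 6.02% of the promoters. No AAGGTCA, which 4.08% of the promoters held, lay in any of these 3 windows. These matches describe the letters of the windows and were not tested as binding sites.

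Cells were assigned to types by gates on marker genes that include none of the 7 members, and the names below refer to those gates. Of 3642 and 4371 cells kept in libraries 1 and 2, 1570 and 527 were granulosa cells (Foxl2, Fst, Wnt6), 1397 and 2495 interstitial cells (Col1a2, Dcn), 146 and 221 mesothelial cells (Upk3b) and 230 and 656 germ cells (Ddx4, Dazl, Ooep). A further 59 and 28 cells passed the endothelial gate and 29 and 46 the immune gate. Median unique molecular identifiers (UMIs, each a captured molecule) were 9883 and 9622 in granulosa, 6515 and 5011 in interstitial, 14642 and 11939 in mesothelial and 77616 and 49892 in germ cells. Of all kept cells, 618 lay within 1.5-fold above the granulosa threshold and 615 within 1.5-fold below it, so this gate cuts through a range of cells. These counts take in cells assigned by other gates, and the granulosa cells near the threshold were not counted apart.

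The names were checked against markers not used for the gates. Levels are given as CPM, the UMIs of a gene scaled to the same summed UMIs for every type and library. The 6 granulosa check markers summed to 1224 and 1146 CPM in granulosa cells and to 906 and 867 CPM in mesothelial cells, so they did not set these types apart. The 6 mesothelial check markers did, at 1262 and 1119 CPM in mesothelial against 92.3 and 118 CPM in granulosa cells. The 5 interstitial markers reached 5994 and 4940 CPM in interstitial against 117 and 146 CPM in granulosa cells, and the 6 germ markers 5990 and 4794 CPM in germ cells against at most 49.7 CPM in the other 3 types. The granulosa markers summed to 65.5 CPM in germ cells of library 2 against 20.9 CPM in library 1, and that share is to be read beside the low values of granulosa genes in germ cells. Both libraries held 21 barcodes in common.

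Cga stood out in granulosa cells. It measured 29.0 CPM in library 1 (543 UMIs) and 15.8 CPM in library 2 (105 UMIs), 22.4 ± 9.34 CPM (SD, n = 2). Interstitial cells held 2 and 5 UMIs, mesothelial cells 0 and 1, and germ cells 2 and 21. Both granulosa values lay above every value of the other 3 types, the highest of which was 0.769 CPM in germ cells of library 2.

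**Figure D1:**
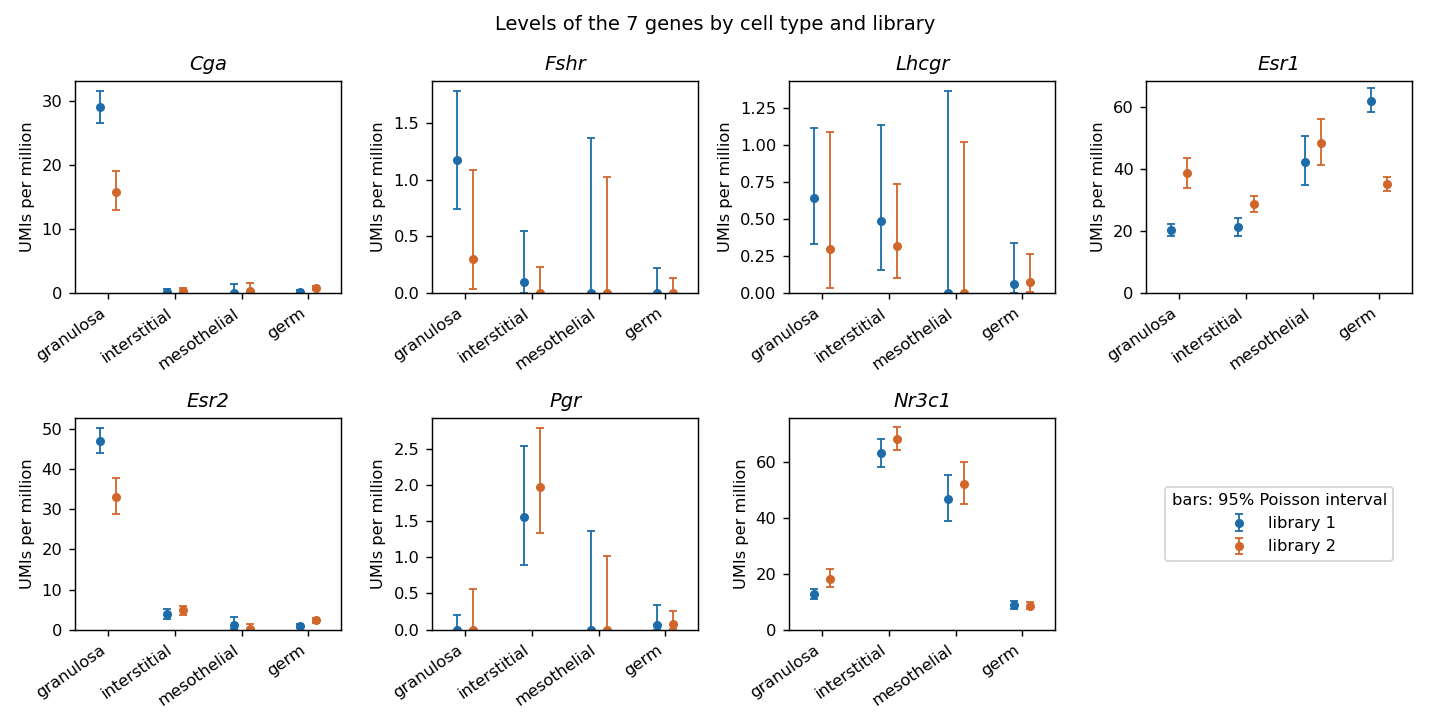
CPM of each of the 7 genes in granulosa, interstitial, mesothelial and germ cells. Points are the 2 libraries and bars the 95% Poisson interval of the count, and each panel has its own vertical scale. Cga and Esr2 are high in granulosa cells, Nr3c1 in interstitial and mesothelial cells, Pgr in interstitial cells, and Esr1 in all 4 types.

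Differences between types were tested with edgeR's quasi-likelihood test on the summed UMIs, and a gene is called where it differs over 2-fold with a Benjamini-Hochberg adjusted p under 0.05 over all 15344 genes tested. In granulosa against interstitial cells 4 of the 5 members tested were called, beside 27.1% of all genes, and Fshr and Lhcgr held too few UMIs to enter. The log2 fold change of Cga was 6.28 ± 0.71 (SE, adjusted p = 3.0e-04) over interstitial cells. It was 6.996 ± 1.02 (adjusted p = 0.0028) over mesothelial cells, where 2 members were higher in granulosa cells beside 7.16% of all genes and 1 in mesothelial cells beside 7.68% (14.8% in all). Over germ cells it was 5.34 ± 0.60 (adjusted p = 8.1e-05), with 2 members higher in granulosa cells beside 29.4% of all genes and 0 higher in germ cells beside 30.4% (59.8% in all). Pooled over the libraries, the Cga share of UMIs in granulosa cells was 95.1 times that of interstitial cells, with a 95% counting interval of 45.9 to 238. Among the other 3 types Cga did not differ detectably, with adjusted p between 0.38 and 0.82.

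Cga molecules were detected in a small share of granulosa cells. At least 1 Cga UMI was seen in 225 of 1570 cells (14.3%, exact 95% binomial interval 12.6 to 16.2%) and in 66 of 527 (12.5%, 9.82 to 15.7%). In interstitial cells, which served as the background, the shares were 0.143% and 0.160%. With every cell thinned to 2000 UMIs, which left out 3 and 4 granulosa cells, the granulosa shares were 4.72% and 2.10% and the interstitial shares 0.144% and 0.124%. These intervals cover counting error only, and a cell without a Cga UMI at this depth may still express the gene.

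Within the Cga-positive cells the molecules were unevenly spread. Of those cells, 137 and 48 held a single Cga UMI, whereas the highest cell of library 1 held 41 and the highest of library 2 held 7. The 8 cells with most Cga UMIs held 28.5% of the Cga UMIs of granulosa cells in library 1 and 35.2% in library 2. Without them the granulosa level was 20.7 and 10.2 CPM, still above all values of the other types.

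**Figure D2:**
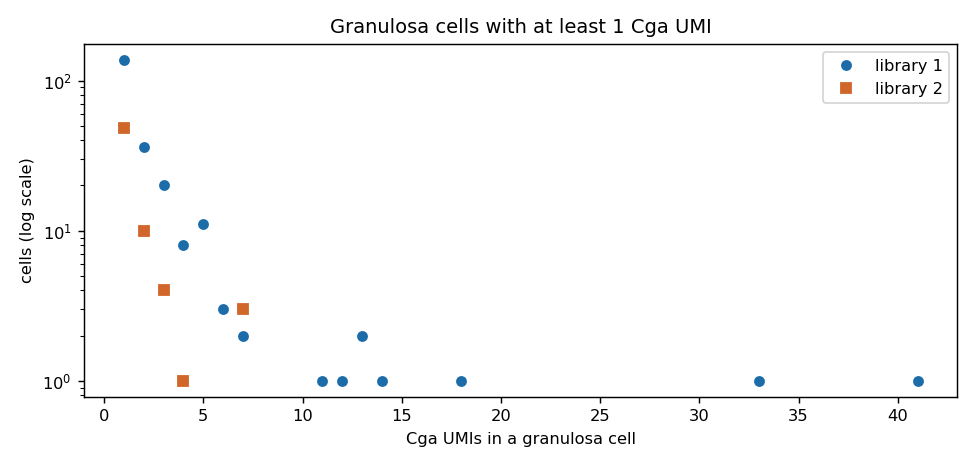
Number of granulosa cells (vertical, log scale) by their Cga UMIs (horizontal) among cells with at least 1 Cga UMI, for each library. Single-UMI cells are the most frequent, 137 in library 1 and 48 in library 2, and the tail reaches 41 UMIs in library 1.

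The partners of Cga in the pituitary hormones were at or near 0. Fshb had 1 UMI in all gated cells of the 4 types, in germ cells of library 2, and Tshb had 0. Lhb had 1 and 0 UMIs in granulosa, 2 and 3 in interstitial and 3 and 4 in germ cells. Of 9 pituitary markers, granulosa cells held over 3 UMIs of only Pomc, the precursor of adrenocorticotropin, in both libraries, and Tshb and Prl were at 0 in all 4 types. Pomc itself measured 8.18 and 8.29 CPM in granulosa and 9.44 and 12.9 CPM in germ cells. Gpha2, an alpha subunit of the distinct hormone thyrostimulin, measured 10.9 and 19.9 CPM in granulosa cells and 28.5 and 39.7 CPM in mesothelial cells, against 0.292 and 0.317 CPM in interstitial cells.

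Receptors of the gonadotropins were rare. Fshr, the FSH receptor, had 22 UMIs in granulosa cells of library 1 and 2 in library 2, or 1.18 and 0.301 CPM. It had 1 and 0 UMIs in interstitial cells and 0 in mesothelial and germ cells of both libraries. Counted over both libraries, 24 UMIs in granulosa against 1 in interstitial cells gave a ratio of 24.7 with a 95% counting interval of 4.02 to 1014. Library 1 held 22 of these 24 granulosa UMIs, so this ratio and the limits that follow rest on it. Library 2 alone, with 2 against 0 UMIs, was too sparse to show a difference. Against germ cells the pooled level was at least 13.8-fold higher and against mesothelial cells at least 1.99-fold higher, taking 3 counts over both libraries as the limit for a count of 0. Of granulosa cells, 1.27% (0.780 to 1.96%) and 0.380% (0.0460 to 1.36%) held an Fshr UMI.

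Lhcgr, the LH receptor, was as scarce and did not single out one type. It had 12 and 2 UMIs in granulosa cells, 5 and 5 in interstitial cells, 0 in mesothelial cells and 1 and 2 in germ cells. The pooled ratio of granulosa to interstitial cells was 1.44, with a counting interval of 0.594 to 3.62, so a difference was not detectable at this depth. Markers of steroid-producing cells, which LH stimulates in the adult ovary, gave no single pattern. Of 6 such markers, granulosa cells held 3 over 3 UMIs in both libraries, with a summed level of 92.9 and 74.3 CPM, interstitial cells 2 (36.95 and 34.8 CPM) and mesothelial cells 2 (108 and 85.2 CPM). Nr5a1, a transcription factor of steroid-producing cells, made up most of the sum in granulosa cells at 87.9 and 71.1 CPM, and Star, which brings cholesterol into mitochondria, was highest in mesothelial cells at 52.6 and 36.3 CPM. Cyp17a1, an enzyme of androgen synthesis, had 19 and 12 UMIs in granulosa and 1 and 0 in interstitial cells. Cyp11a1, the enzyme of the first step of steroid synthesis, had 1 and 1 UMIs in granulosa cells and 0 in interstitial cells, and 9 and 8 in cells that passed no gate, and Insl3, a theca and Leydig cell hormone, had 0 in all 4 types.

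Esr2, the beta oestrogen receptor, was highest in granulosa cells. Its level there was 47.1 and 33.1 CPM (40.1 ± 9.87, SD, n = 2), against 3.80 and 4.81 CPM in interstitial, 0.907 and 2.31 CPM in germ and 1.11 and 0.277 CPM in mesothelial cells. The granulosa values did not overlap with those of the other types. The log2 fold change was 3.13 ± 0.40 over interstitial cells (adjusted p = 5.7e-04), 5.88 ± 0.66 over mesothelial cells (adjusted p = 9.9e-04) and 4.43 ± 0.42 over germ cells (adjusted p = 3.5e-05).

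Below granulosa cells the order of Esr2 was less firm. Interstitial cells stood over mesothelial cells by a log2 fold change of 2.75 ± 0.82 (adjusted p = 0.034), where 2 members were called beside 22.2% of all genes. That call was lost when any 1 of the 4 library sums was left out, with adjusted p from 0.062 without library 1 of interstitial cells to 0.24 without library 2 of mesothelial cells, and when cells were thinned (adjusted p = 0.16). Interstitial over germ cells gave 1.30 ± 0.44 (adjusted p = 0.025), with 3 members higher in interstitial cells beside 26.9% of all genes and 0 higher in germ cells beside 32.2% (59.1% in all). It was not called without library 2 of interstitial cells (adjusted p = 0.13), without library 1 of germ cells (0.98 on the log2 scale, under 2-fold) or after thinning (adjusted p = 0.56). At least 1 Esr2 UMI was found in 35.5% and 22.8% of granulosa cells and in 2.05% and 0.452% of mesothelial cells, the type with the lowest level. After thinning these shares were 8.68% and 5.54% in granulosa and 0 of 146 and 0 of 221 cells in mesothelial cells.

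Esr1, the alpha oestrogen receptor, was present in all 4 types and ordered them differently from Esr2. It measured 62.1 and 35.02 CPM in germ cells (48.5 ± 19.1), 42.2 and 48.3 CPM in mesothelial cells (45.3 ± 4.26), 20.3 and 38.6 CPM in granulosa cells (29.4 ± 12.9) and 21.3 and 28.6 CPM in interstitial cells (24.9 ± 5.21). The ranges of neighbouring types in this order overlapped, except that both mesothelial values lay above both granulosa values. None of the 3 steps was called: mesothelial minus germ cells was -0.11 ± 0.34 on the log2 scale (adjusted p = 0.79), granulosa minus mesothelial cells -0.73 ± 0.35 (adjusted p = 0.18) and granulosa minus interstitial cells 0.13 ± 0.33 (adjusted p = 0.79). For the last, 2 standard errors on either side span -0.54 to 0.79, and its sign turned to -0.37 without library 2 of granulosa cells. Without that library the granulosa minus mesothelial change was -1.26 (adjusted p = 0.044) and was called. In the first of these contrasts 1 member, Nr3c1, was called beside 55.3% of all genes.

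Germ cells of library 1 set the top of the Esr1 order. Interstitial minus germ cells was -0.97 ± 0.33 (adjusted p = 0.025), short of the 2-fold limit, and with library as a block it was -1.0005 (adjusted p = 0.020) and was called. The difference within library 1 was -1.55 and within library 2 only -0.29. Granulosa minus germ cells was -0.84 ± 0.33 (adjusted p = 0.044), also short of 2-fold, with -1.61 in library 1 and 0.14 in library 2. Without library 2 of germ cells both contrasts passed, at -1.26 (adjusted p = 0.0042) and -1.15 (adjusted p = 0.0075). They also passed without library 2 of interstitial cells (-1.19, adjusted p = 0.046) and without library 2 of granulosa cells (-1.17, adjusted p = 0.014), respectively. With stricter gates interstitial minus germ cells was called as well (-1.005, adjusted p = 0.012). When germ cells of a library were cut into 3 equal parts by their UMIs, Esr1 measured 56.0, 62.5 and 64.0 CPM from the lowest to the highest part in library 1 and 53.9, 34.3 and 34.5 CPM in library 2. The lowest part of library 2 had a median of only 2438 UMIs against 42589 in library 1, and the part of this depth difference in the levels was not tested. In the small vascular and blood cell gates Esr1 had 3 and 0 UMIs in endothelial cells and 0 in immune cells of both libraries. The counts of 0 allow up to 8.43 CPM in endothelial cells of library 2 and 13.0 and 10.1 CPM in immune cells.

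**Figure D3:**
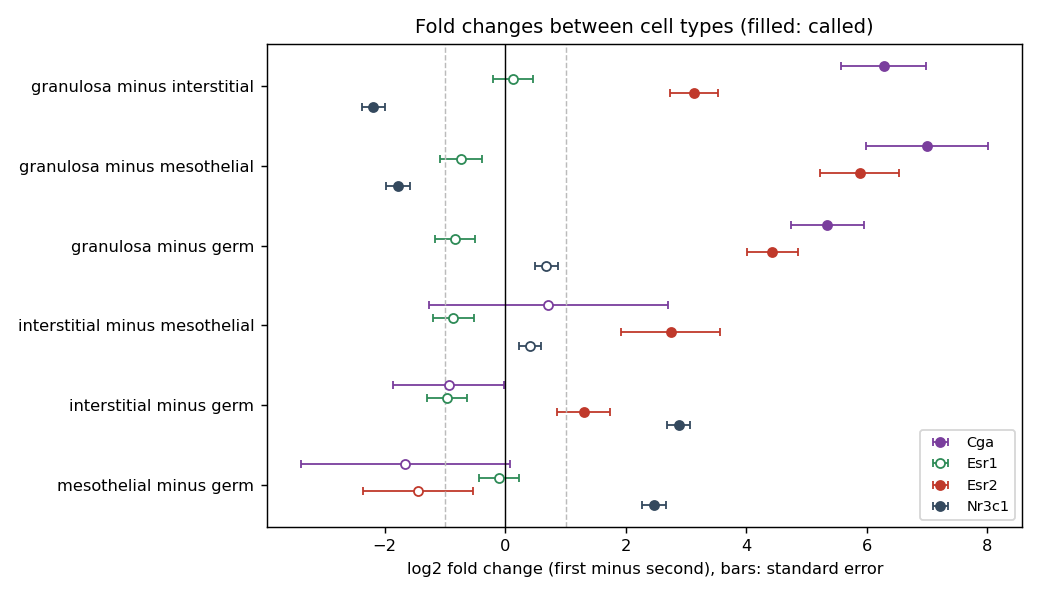
Log2 fold change (horizontal) of Cga, Esr1, Esr2 and Nr3c1 in the 6 contrasts between cell types (vertical), with the standard error as bars, filled where called and open where not. Cga and Esr2 lie far right in the 3 granulosa contrasts, Nr3c1 lies left against interstitial and mesothelial cells, and no Esr1 point is filled.

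Pgr, the progesterone receptor, was seen in interstitial cells and hardly in granulosa, mesothelial or germ cells. Interstitial cells held 16 and 31 UMIs (1.56 and 1.96 CPM), in 1.15% and 1.12% of cells. Granulosa cells held 0 of 18705758 and 0 of 6638412 UMIs, which allows up to 0.160 and 0.452 CPM. Mesothelial cells also held 0, which allows up to 1.11 and 0.832 CPM, and germ cells held 1 and 2 UMIs. The counts of 0 in the small gates allow up to 3.14 and 8.43 CPM in endothelial and 13.0 and 10.1 CPM in immune cells. These limits lie above the interstitial level, so a lower level there was not shown. The interstitial level over both libraries was at least 15.2-fold higher than in granulosa cells (adjusted p = 0.0017) and at least 3.79-fold higher than in mesothelial cells (adjusted p = 0.013). The second of these calls rested on few mesothelial UMIs, and the adjusted p was 0.058 with DESeq2, 0.075 without library 2 of interstitial cells, 0.059 without library 1 and 0.079 without library 2 of mesothelial cells. Against germ cells the ratio of interstitial UMIs was 26.4, with a counting interval of 8.49 to 132.5 (adjusted p = 6.4e-04).

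Nr3c1, the glucocorticoid receptor, ran opposite to Esr2 between granulosa and interstitial cells. It measured 63.2 and 68.5 CPM in interstitial (65.8 ± 3.73), 46.7 and 52.1 CPM in mesothelial (49.4 ± 3.86), 12.7 and 18.2 CPM in granulosa (15.5 ± 3.89) and 8.83 and 8.64 CPM in germ cells (8.73 ± 0.137). The 4 ranges did not overlap. Granulosa minus interstitial cells was -2.19 ± 0.19 (adjusted p = 8.6e-05) and granulosa minus mesothelial cells -1.78 ± 0.20 (adjusted p = 9.3e-04), with the lower level in granulosa cells in both libraries. Interstitial cells exceeded germ cells by 2.88 ± 0.19 (adjusted p = 4.7e-06) and mesothelial cells exceeded them by 2.47 ± 0.20 (adjusted p = 1.7e-05).

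The remaining steps of the Nr3c1 order were smaller. Interstitial minus mesothelial cells was 0.41 ± 0.18 (adjusted p = 0.13). Granulosa minus germ cells was 0.68 ± 0.19 (adjusted p = 0.011), short of 2-fold, and 1.74 (adjusted p = 0.0031) after thinning, where germ cells kept only 2 and 5 Nr3c1 UMIs. The small gates held Nr3c1 too, at 39.7 and 25.3 CPM in endothelial cells (38 and 9 UMIs) and 34.7 and 36.9 CPM in immune cells (8 and 11 UMIs), and were not tested. In thinned cells an Nr3c1 UMI was found in 12.6% and 12.6% of interstitial, 9.59% and 8.60% of mesothelial, 2.62% and 2.49% of granulosa and 0.901% and 0.868% of germ cells.

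Granulosa cells were then divided by detection of Amh or Inhbb, genes of growing follicles that encode anti-Müllerian hormone and an inhibin and activin beta subunit, and of Colec11 or Pld5. Cells with Amh or Inhbb and neither of the others numbered 498 and 102, cells with Colec11 or Pld5 only 465 and 222, cells with both 302 and 86, and cells with neither 305 and 117. Median UMIs of the first 2 subsets were 11018 and 11022 against 8723 and 9672, while cells with both had 13533 and 17766, so detection of all 4 genes moved with depth.

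The members split between these subsets. Cga measured 8.47 and 6.18 CPM in Amh/Inhbb-only cells against 64.8 and 22.3 CPM in Colec11/Pld5-only cells. Esr1 measured 12.1 and 10.3 CPM against 31.7 and 54.0 CPM. Esr2 went the other way, at 62.8 and 59.8 CPM against 27.8 and 17.6 CPM. The cells with both marker pairs lay between the subsets for Cga, Esr1 and Esr2 in both libraries. For Cga the cells with both measured 19.2 and 19.6 CPM, and the cells with neither 25.3 and 3.66 CPM.

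**Figure D4:**
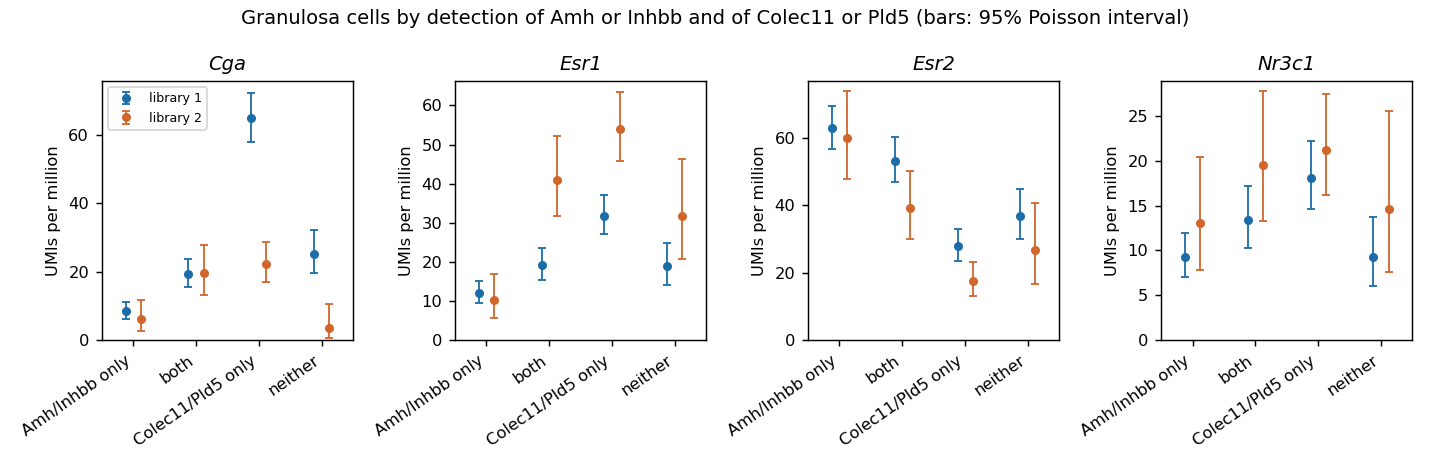
CPM of Cga, Esr1, Esr2 and Nr3c1 in granulosa cells grouped by detection of Amh or Inhbb and of Colec11 or Pld5. Points are the 2 libraries and bars the 95% Poisson interval. Cga and Esr1 are highest and Esr2 lowest in the Colec11/Pld5-only cells of both libraries. In library 2 the Cga intervals of these cells and of the cells with both overlap.

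Of the 4 members tested, 3 were called between Amh/Inhbb-only and Colec11/Pld5-only cells, beside 9.84% of 11376 genes. The log2 fold change, as Amh/Inhbb-only minus Colec11/Pld5-only cells, was -2.46 ± 0.59 for Cga (adjusted p = 0.025), -1.84 ± 0.44 for Esr1 (adjusted p = 0.024) and 1.46 ± 0.23 for Esr2 (adjusted p = 0.0050). Nr3c1, at 9.27 and 13.1 against 18.1 and 21.2 CPM, gave -0.84 ± 0.32 (adjusted p = 0.12) and was not called. The Cga call was lost without either library of Amh/Inhbb-only cells (adjusted p = 0.15 without library 1 and 0.15 without library 2) and without library 1 of Colec11/Pld5-only cells (-1.51, adjusted p = 0.17), and the Esr1 call without either library of Amh/Inhbb-only cells (adjusted p = 0.13 and 0.12) or library 2 of Colec11/Pld5-only cells (-1.39, adjusted p = 0.12). With cells thinned to 2000 UMIs before the subsets were set, edgeR called 0 members, beside 273 of 6661 genes. In that fit 3 members had an unadjusted p under 0.05, at -2.26 for Cga, -1.86 for Esr1 and 1.15 for Esr2. DESeq2 without thinning called 3 members, beside 942 of 14182 genes.

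Fshr followed the Amh and Inhbb side in library 1, with 19 UMIs in Amh/Inhbb-only and 0 in Colec11/Pld5-only cells. Library 2 held 0 and 1, so the pooled ratio of 19.5 (counting interval 3.10 to 809.7) rests on library 1. Pgr was at 0 in all 4 subsets.

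Markers listed for other cell types moved with these subsets. The 6 mesothelial markers summed to 35.6 and 11.7 CPM in Amh/Inhbb-only and 147 and 151 CPM in Colec11/Pld5-only cells, with 4 of 6 over 3 UMIs in both libraries of the latter, while Upk3b was at 0 by the gate. Across all granulosa cells most UMIs of the mesothelial markers were of Lhx9, with 2072 over both libraries, seen in a mean of 48.4% of cells. Krt7 had 227, Krt19 152 and Msln 54. Lrrn4 and Upk1b, both mesothelial markers too, were at 4 and 2 UMIs in library 1 and at 0 in library 2. The 4 haemoglobin genes summed to 34.99 and 43.3 CPM against 431 and 2407 CPM, and all 4 exceeded 3 UMIs in the latter. Their part in the subset differences was not tested.

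Clusters of granulosa cells, built on variable genes without the 7 members, spread Esr1 and Esr2 over a wider range. A cluster led by Hsd3b1, Amh and Siglece had 62.2 and 75.8 CPM of Esr2 and 11.1 and 11.2 CPM of Esr1. A cluster led by the cell cycle genes Ube2c, Cenpf and Ccnb1 was like it, at 55.5 and 64.8 CPM of Esr2 and 12.1 and 7.20 CPM of Esr1. A cluster led by Serpina1a, Serpina1b and Serpina1d had 61.7 and 73.3 CPM of Esr2 and 13.8 and 30.3 CPM of Esr1. In these 3 clusters Esr2 was high and Esr1 low, apart from Esr1 in the 22 Serpina1a-led cells of library 2.

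In the other 3 clusters Esr1 was above Esr2, except in library 1 of the cluster led by Colec11. A cluster led by Colec11, Hspa1a and Mgp, which also held Cga among its leading genes, measured 33.9 and 26.0 CPM of Esr2, 25.4 and 43.7 CPM of Esr1 and 60.6 and 30.7 CPM of Cga. A cluster led by Hbb-bs, Hba-a1 and Rnd1, with inflammatory genes such as Cxcl1, measured 18.5 and 15.4 CPM of Esr2, 43.4 and 60.1 CPM of Esr1 and 61.5 and 15.4 CPM of Cga. A cluster led by Pglyrp1, H19 and Krt18 had 0 and 1 Esr2 UMIs in its 68 and 143 gated cells, with 34.6 and 53.7 CPM of Esr1. These values describe the clusters and carry no test, since the clusters were drawn from the same cells. The libraries also differed in cluster makeup. The Serpina1a-led cluster held 442 of 1570 granulosa cells in library 1 and 22 of 527 in library 2. The part of this makeup in the differences of granulosa Esr1 and Esr2 between libraries was not tested.

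**Figure D5:**
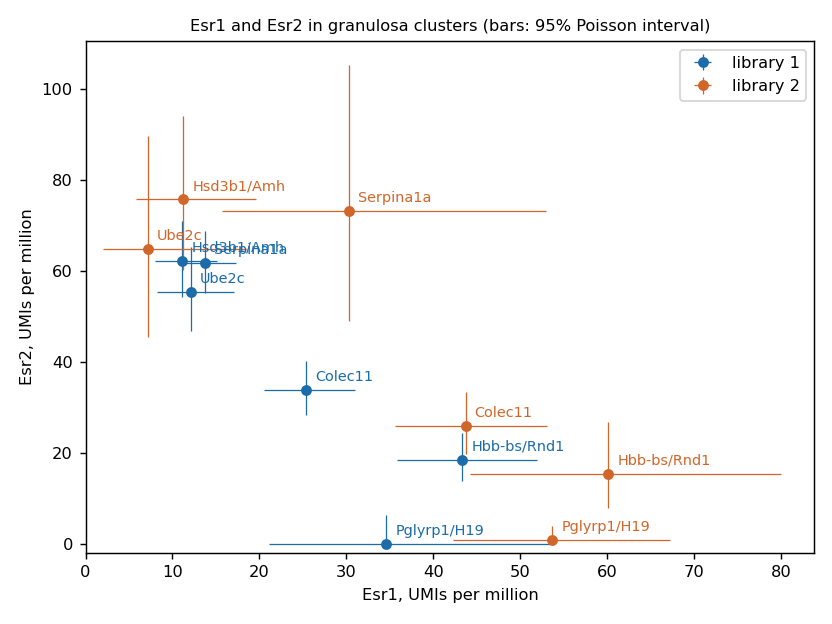
Esr1 (horizontal) against Esr2 (vertical), in CPM, for 6 clusters of granulosa cells in each library, named by leading genes, with 95% Poisson intervals as bars. The Pglyrp1/H19 cluster lies near 0 for Esr2 in both libraries, and the Hsd3b1/Amh cluster lies at 11.1 and 11.2 for Esr1.

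The cluster with 0 and 1 Esr2 UMIs, picked for its low Esr2, was left out in a further fit, chosen after the data were seen. The subset changes were then -2.56 for Cga (adjusted p = 0.0021), -1.91 for Esr1 (adjusted p = 0.0056) and 1.26 for Esr2 (adjusted p = 0.0031). All 3 stayed called, beside 1339 of 10973 genes, against 1119 of 11376 genes with the cluster kept. Because Esr2 itself chose the cells left out, this fit is no independent support for the Esr2 change. The subsets also fell into different clusters. Amh, Inhbb, Colec11 and Pld5 were not held out of the clustering, and Amh and Colec11 lead clusters, so this is not independent of the split. Of Amh/Inhbb-only cells, 45.0% and 57.8% lay in the cluster led by Hsd3b1 and Amh and 24.5% and 32.4% in the cell cycle cluster. Of Colec11/Pld5-only cells, 1.29% and 1.35% lay in the first of these and 1.08% and no cell in the second, while 34.6% and 43.7% lay in the cluster led by Colec11 and 34.4% and 21.6% in that led by Hbb-bs. The part of the cell cycle in the subset differences was not tested. The cluster low in Esr2 made up 4.30% and 27.0% of the Colec11/Pld5-only cells of libraries 1 and 2 and 1.61% and 2.94% of the Amh/Inhbb-only cells.

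Within granulosa cells, Cga and the oestrogen receptors met in the same cells at these rates. Of Cga-positive cells, 25.3% and 53.0% held an Esr1 UMI, against 18.4% and 30.8% of Cga-negative cells, so Esr1 was more frequent beside Cga in both libraries. The same held for Nr3c1, at 18.7% and 27.3% of Cga-positive against 12.2% and 16.7% of Cga-negative cells. Esr2 was found in 26.2% and 28.8% of Cga-positive cells and in 37.1% and 21.9% of Cga-negative cells, with opposite order in the libraries. Esr1 and Esr2 were both detected in 120 and 37 cells. Deeper cells detect more of any pair, and these shares were given no test.

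The genes whose levels ran most like each member were sought over 12 sums, those of 6 gated types in 2 libraries, as Pearson's r of log2(CPM + 1), among genes with at least 200 UMIs. For Cga they were Omg (r = 0.985), Calb1 (0.972), a gene for a calcium-binding protein, and 1700016F12Rik (0.970). For Esr2 they were Tmem215 (0.975), Sptssb (0.972) and Apoa4 (0.960), and for Esr1 Ift140 (0.985), a gene of transport within cilia, Katnal1 (0.978) and Kctd7 (0.977). For Nr3c1 they were Mxra8 (0.965), Tspan4 (0.955) and Cnn2 (0.938). The sums share libraries and differ widely in depth, and Fshr, Lhcgr and Pgr had 25, 27 and 50 UMIs, too few to enter.

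Other genes of the same pathways were taken from 8 lists with 113 genes, of which 112 are in the files. The lists were chosen with earlier results of these data known, so the shares below describe them and are not independent support. Between granulosa and interstitial cells 99 could be tested, 20 were higher in granulosa and 13 in interstitial cells, or 20.2% and 13.1% beside 14.4% and 12.7% of all genes. Genes named below to spell out counts of 5 or fewer were chosen after their values were seen.

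Genes that FSH or oestrogen are known to induce were mostly high in granulosa cells. Of 8 tested, 5 were higher there (62.5%, beside 14.4% of all genes) and 0 lower. The median log2 fold change was 4.395 beside 0 over all genes. The 5 were Hsd17b1, which makes the active oestrogen oestradiol, Cyp19a1, the aromatase, the nuclear receptor Nr5a2, the inhibin subunit Inha and the oestrogen target Greb1. Hsd17b1 measured 58.4 and 38.6 CPM in granulosa cells against 1 and 0 UMIs in interstitial cells, a ratio of 1385 with a counting interval from 248 upward. Cyp19a1 measured 3.80 and 1.66 CPM and was at 0 in interstitial cells, so that it was at least 28.1-fold higher. Nr5a2 measured 63.1 and 55.9 against 1.07 and 0.380 CPM (log2 fold change 6.38 ± 0.36, adjusted p = 1.7e-05).

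Of the cAMP signalling genes 29 of 31 were tested, with a median of -0.30. Of these, 2 were higher in granulosa cells (the adenylate cyclases Adcy6 and Adcy9) and 7 in interstitial cells. These were 6.90% and 24.1%, beside 14.4% and 12.7% of all genes. Adcy5, another adenylate cyclase, had 0 UMIs in granulosa cells and 6.53 and 6.396 CPM in interstitial cells, at least 54.5-fold higher there. Adcy7 measured 0.214 and 0.301 against 33.8 and 25.2 CPM (log2 fold change -6.97 ± 0.60, adjusted p = 8.2e-05). Among ligands 3 of 9 could be tested and 2, Gpha2 and Pomc, were higher in granulosa cells (66.7%, beside 14.4% of all genes).

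Steroid handling and the partners of nuclear receptors gave a mixed picture. Of 10 genes of local steroid conversion 8 were tested. Of these, 3 (37.5%) were higher in interstitial cells (Hsd11b1, Hsd11b2 and Srd5a3), beside 12.7% of all genes. Only 1, Akr1c14 (12.5%), was higher in granulosa cells, beside 14.4% of all genes. Hsd11b1, which regenerates active glucocorticoid, had 1 and 0 UMIs in granulosa cells against 6.63 and 3.74 CPM in interstitial cells, a ratio of 124 with a counting interval of 21.8 to 4919. Of 15 coregulators 2 (13.3%), among them Nrip1, were higher in granulosa cells and 1 (Ncoa3, 6.67%) in interstitial cells. Of 9 chaperones only Fkbp5 (11.1%) was called, higher in granulosa cells. The shares of coregulators and chaperones were all under those of all genes.

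Among the other hormone receptors 17 of 21 were tested. In granulosa cells 5 were higher (Tshr, Amhr2, Nr3c2, Paqr5 and Paqr7), or 29.4% beside 14.4% of all genes. In interstitial cells 1 was higher, or 5.88% beside 12.7%. Of 11 genes known to respond to glucocorticoids, 3 (Mt1, Mt2 and Fkbp5) were higher in granulosa cells, where Nr3c1 itself was lower. Another 1, Cebpd, was higher in interstitial cells. These were 27.3% and 9.09%, beside 14.4% and 12.7% of all genes.

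Between interstitial and mesothelial cells 20 list genes were higher in interstitial and 12 in mesothelial cells, or 20.2% and 12.1% beside 10.6% and 11.6% of all genes. Hsd11b2, which inactivates glucocorticoid, measured 69.8 and 62.0 against 0.371 and 0.832 CPM (log2 fold change 6.68 ± 0.34, adjusted p = 2.0e-05), and Hsd11b1 had 0 mesothelial UMIs and was at least 10.3-fold higher in interstitial cells. On the mesothelial side stood the metallothioneins Mt1, at 3293 and 3879 CPM against 16.2 and 26.6 CPM, and Mt2, at 2290 and 1959 CPM against 8.68 and 9.69 CPM, and Gpha2 (interstitial minus mesothelial -6.76 ± 0.48, adjusted p = 5.7e-05).

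In the contrast of granulosa subsets 79 list genes were tested, 11 higher in Amh/Inhbb-only and 5 in Colec11/Pld5-only cells, or 13.9% and 6.33% beside 5.45% and 4.39% of all genes. Of the 6 FSH and oestrogen response genes tested 5 were higher in Amh/Inhbb-only cells (83.3%, beside 5.45% of all genes). The median of the 6 was 2.58 beside -0.02 over all genes. In the same cells Esr2 was higher and Esr1 lower, and a link to these genes was not tested. The 5 genes were Inhba, Hsd17b1, Nr5a2, Inha and Greb1. Inha and Inhba are inhibin and activin subunit genes like Inhbb, which helped to set the subsets, so their calls are not independent of the split. In Amh/Inhbb-only cells Inhba measured 68.5 and 65.95 against 10.7 and 3.599 CPM, and Hsd17b1 109 and 119.5 against 18.5 and 10.4 CPM. Gpha2 was higher there too, at 23.0 and 43.3 against 1.56 and 6.48 CPM (3.20 ± 0.77, adjusted p = 0.025), as was Paqr6, a membrane progestin receptor, at 8.47 and 22.7 against 0.974 and 1.08 CPM.

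The 3 list genes of largest fold in the other direction were Cebpd, Klf9 and Ghr. Cebpd measured 33.9 and 8.93 CPM in Amh/Inhbb-only against 189 and 119.5 CPM in Colec11/Pld5-only cells (-2.62 ± 0.51, adjusted p = 0.011). Klf9 measured 13.6 and 6.87 against 54.7 and 68.7 CPM (-2.39 ± 0.32, adjusted p = 0.0025). Both are genes that glucocorticoids can induce, and Nr3c1 was not called in this contrast. Of the 10 tested in that list 2 were called (20%), beside 4.39% of all genes in this direction. Cebpd was also a leading gene of the cluster led by Hbb-bs, at 347 against 46.7 CPM in the other granulosa clusters. That cluster held 34.4% and 21.6% of Colec11/Pld5-only but 0.803% and 0.980% of Amh/Inhbb-only cells. Its part in the Cebpd difference was not tested. Ghr, the growth hormone receptor, measured 14.7 and 10.99 against 55.3 and 51.5 CPM (-1.95 ± 0.32, adjusted p = 0.0057). With cells thinned to 2000 UMIs, 7 list genes were called in this contrast, against 16 without thinning.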

How the data were processed

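The authors dissociated the ovaries, captured cells on the 10x Chromium and counted UMIs per gene and cell with Cell Ranger 3.0.2 on GRCm38, per the labels. The deposited tables hold raw UMI counts. The labels and the study's methods name different versions of the capture kit. Reads of genes with near-identical copies were handled by that counting and were not revisited. The members and gene lists were chosen with earlier results of these data known, and gate thresholds were set after the gate genes' distributions were seen.

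Barcodes were kept from 500 detected genes upward where mitochondrial genes took no more than 10% of UMIs. Scrublet doublets were removed at the score threshold of library 1 (0.225) in both libraries, since the automatic threshold of library 2 was 0.521. This took out 96 and 93 cells of 3738 and 4464. Gates were set on summed marker UMIs per 10000, at 4 for granulosa, 8 for interstitial, 2 for mesothelial, 6 for germ and 4 for endothelial and immune cells, with at least 2 UMIs. Cells over several gates other than the granulosa gate were left out. Interstitial, germ, endothelial and immune cells were also left out from 8 granulosa marker UMIs per 10000 upward. Mesothelial cells were kept whatever their granulosa markers, and granulosa cells had to pass no other gate and hold no Upk3b UMI. The libraries held 54471790 and 59074480 UMIs in 4094 and 4847 barcodes.

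UMIs were summed per type and library and tested with edgeR 4.0.16 (TMM, filterByExpr, quasi-likelihood F test, R 4.3.3). All 4 types were in 1 fit and all 4 granulosa subsets in another. Adjusted p-values are Benjamini-Hochberg over all genes tested. Standard errors (SE) are approximate: each is the absolute log2 fold change divided by the square root of its F statistic, not an estimate from the fit. Ratios of pooled counts carry exact 95% intervals for counting error, and a count of 0 was set to a limit of 3 counts. On simulated counts every one of 200 genes changed by 2 on the log2 scale was recovered. False calls were 0.498% between granulosa and interstitial cells (16579 genes) and 0.99% between the subsets (13087 genes). The simulation gave every gene the same dispersion of 0.02, changed only well-detected genes and drew the sums independently. It checks the fitting code and does not measure how accurate the calls of sparse or variable members are. Named list genes were the 3 of largest fold in each direction in 3 contrasts, and some list genes are not reported here. Clusters came from scanpy 1.11.5, with the 7 members left out of the variable genes. Same-numbered sums come from the same pups and droplet run and so are paired, and the differences between libraries correlated at 0.0686 to 0.275 across types and at 0.251 to 0.527 across granulosa subsets. Alternatives were DESeq2 1.42.0, a library block, no TMM, no count filter, each sum left out, thinning to 2000 UMIs, clusters in place of gates, stricter gates, doublets kept, no cell filter and 2 UMIs of the subset genes.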

Additional observations from a re-analysis of the deposited data

Results flagged for a closer look

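Cells that passed no gate, 172 in library 1 and 252 in library 2, entered no comparison, and 4 members were detected there above the limit for a count of 0. They held 22 Cga UMIs over both libraries (14 and 8), 116 Esr1 UMIs (38 and 78), 37 Esr2 UMIs (19 and 18) and 99 Nr3c1 UMIs (43 and 56). Fshr, Lhcgr and Pgr had 0 UMIs in these cells.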

How the results depend on the processing

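The calls of Cga and Esr2 in granulosa cells over the other 3 types, and of Nr3c1 in interstitial over granulosa cells, were unchanged in all 14 alternatives. As granulosa minus interstitial cells, the log2 fold change ranged from 5.11 to 6.69 for Cga and from 2.86 to 3.37 for Esr2. For Nr3c1 it ranged from -2.44 to -1.92. Few UMIs limit Fshr, Lhcgr and Pgr. With cells thinned to 2000 UMIs, the members called were 0 between interstitial and mesothelial cells (1 at an unadjusted p under 0.05, against 2 without thinning), 1 between interstitial and germ cells (3) and 0 between the granulosa subsets (3). Thinning left 16 list genes called between granulosa and mesothelial cells (29), 16 between interstitial and mesothelial cells (32) and 7 between the subsets (16). Over all genes it lowered the calls from 2277 of 15344 to 1213 of 10745 between granulosa and mesothelial cells. Between interstitial and mesothelial cells they fell from 3413 to 1889, and between interstitial and germ cells from 9064 to 5770. DESeq2 called 1 member between interstitial and mesothelial cells, beside 3261 of 17840 genes. Without the count filter 4 members were called between granulosa and germ cells, beside 10311 of 22394 genes. In the same setting 2 were called between mesothelial and germ cells, beside 9162 of 22394 genes. The cause was not tested.

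Leaving out 1 sum at a time gave 2 to 5 members between granulosa and germ cells, 0 to 1 between interstitial and mesothelial, 1 to 2 between mesothelial and germ cells and 1 to 2 between the subsets, and 17 to 26 list genes between granulosa and mesothelial cells, 20 to 26 between interstitial and mesothelial cells and 8 to 13 between the subsets. In these fits the calls over all genes fell too between granulosa and mesothelial, interstitial and mesothelial, and mesothelial and germ cells, and between the subsets. Between granulosa and germ cells they moved in both directions. The part of this general loss of calls in the member and list counts was not tested. The following uncalled values changed sign. Esr1 in granulosa minus interstitial cells was -0.029 without the filter, and ranged from -0.37 without granulosa library 2 to 0.55 without granulosa library 1. Esr1 in mesothelial minus germ cells was 0.11 thinned, and ranged from -0.41 without germ library 2 to 0.47 without germ library 1. Cga ranged from -0.054 without mesothelial library 1 to 4.95 without mesothelial library 2 in interstitial minus mesothelial cells. It ranged from -1.42 without germ library 1 to 1.12 without germ library 2 in interstitial minus germ cells (0.25 thinned), and from -5.90 without mesothelial library 2 to 0.40 without germ library 2 in mesothelial minus germ cells.

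With the library as a block, Esr1 in interstitial minus germ cells was called (-1.0005), and no other member's call changed. Between the subsets the block gave 1593 calls over all genes, 756 higher in Amh/Inhbb-only and 837 in Colec11/Pld5-only cells, against 620 and 499 of 1119 without it. Over all genes thinning lowered the calls from 4156 to 2641 between granulosa and interstitial cells and from 1119 to 273 between the subsets, and leaving out a subset sum gave 420 to 692. Without TMM the median of all genes moved by 0.11 between granulosa and germ cells. The fit without the cluster low in Esr2 was chosen after the data were seen. Its cluster was picked by Esr2, so it is no independent support for the Esr2 calls.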
